A study of Mus musculus with 24 samples.

Results

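The inflammation-associated miRNAs miR-21a, miR-146 and miR-155 were followed in extracellular vesicles (EVs) from mouse serum after surgery to the tibia. The members were taken by name from the deposited counts of mature miRNAs, which gave 5 of its 1966 miRNAs: mmu-miR-21a-5p, mmu-miR-21a-3p, mmu-miR-146a-5p, mmu-miR-146b-5p and mmu-miR-155-5p. All 24 mice were wild type C57BL/6 aged 14 to 16 weeks, and per the study's methods they were males. The Control group of 6 mice had no surgery and was injected with saline. The S6h, S24h and S72h groups, of 6 mice each, had an open tibia fracture stabilized with a pin under isoflurane and buprenorphine, and serum was taken 6, 24 or 72 h later. The S24h and S72h mice also had a daily dose of analgesic, so that surgery, anesthesia and analgesia cannot be told apart in the comparisons with Control. This daily dose also differs between S24h and S6h. The Control group is the control of the 6 h time point, and the control mice kept for the later times were not analysed here. Time, and any batch difference that goes with it, is thus not told apart from surgery in S24h and S72h against Control. EVs were isolated from serum by precipitation and a purification column of a commercial kit.

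MicroRNAs are short RNAs that pair through their seed, the bases near the 5′ end, with messenger RNAs and lower their translation or stability. miR-155 is made from a non-coding host gene that activated macrophages and lymphocytes switch on, and it favours inflammatory signalling. miR-146a is induced by NF-κB. Both miR-146a and miR-146b repress the signalling proteins IRAK1 and TRAF6, which makes them a brake on signalling from Toll-like and interleukin-1 receptors. miR-21a is abundant in many cell types, is raised in injured and inflamed tissue, and represses PDCD4. All of these miRNAs also circulate in blood, in vesicles and in complexes with protein.

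The sequences below show which members can act through the same seed and which can be told apart by a read. They are the mature forms, read 5′ to 3′ from RefSeq (GRCm38.p6), with the seed (bases 2 to 8) in capitals. All 5 members had an entry there, as did 1675 of the 1966 listed miRNAs.
mmu-miR-21a-5p: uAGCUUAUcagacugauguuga
mmu-miR-21a-3p: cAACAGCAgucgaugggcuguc
mmu-miR-146a-5p: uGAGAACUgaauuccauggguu
mmu-miR-146b-5p: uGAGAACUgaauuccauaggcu
mmu-miR-155-5p: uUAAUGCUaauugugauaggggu

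miR-146a-5p and miR-146b-5p share the seed GAGAACU and are identical over their first 17 bases. Counted from the 5′ end, they differ at 2 of 22 bases, G18A and U21C, where the miR-146a-5p base is written first. The counted reads were 20 to 24 bases long, so that a read starting at base 1 covers position 18. Among the listed miRNAs with a RefSeq sequence, the seed AGCUUAU of miR-21a-5p was found in 1 other, miR-21c, which had 0 counts in all 24 libraries. The seeds of miR-21a-3p and miR-155-5p were found in no other listed miRNA with a RefSeq sequence.

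The members come from 4 hairpins (GRCm38). The Mir21a hairpin lies at chr11:86584067-86584158 on the minus strand, inside a UTR exon of the protein-coding gene Vmp1 on the same strand. The Mir146 hairpin of miR-146a lies at chr11:43374397-43374461 on the minus strand, where Gencode lists no other gene. Mir146b lies at chr19:46342762-46342870 on the plus strand, within the gene Mfsd13a and outside its exons. Mir155 lies at chr16:84714140-84714204 on the plus strand, in an exon of the long non-coding RNA Mir155hg.

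Library totals ranged from 63956 to 263211 counts in Control, from 102568 to 471801 in S6h, from 66652 to 143856 in S24h and from 65017 to 245013 in S72h. Levels are given as CPM, the count scaled to a common library total of 1000000, so that a count of 1 equals 15.6 CPM in the smallest library. Lists of miRNAs typical of other sources of serum RNA took shares that differed between libraries. The median share of 6 erythroid miRNAs was 14.5% in Control, 12.7% in S6h, 6.77% in S24h and 6.84% in S72h. The median share of 2 liver miRNAs was 6.85% in Control, 1.32% in S6h, 1.85% in S24h and 0.806% in S72h, where replicate 4 stood apart at 29.98%. That of 5 skeletal muscle miRNAs was 5.33%, 11.8%, 3.32% and 2.78% in the same order, with highest values of 26.5% in S6h and of 23.7% in S72h replicate 1. For 4 miRNAs of platelets and endothelium the medians were 3.34%, 4.29%, 2.32% and 2.399%. The share of 5 leukocyte miRNAs had medians between 1.02% and 1.17% in all 4 groups. Their part in the results below was not tested, except where a value without them is given. Counting intervals of values above 0 are 95% Wilson intervals, the limit for a count of 0 is 3 counts, and both cover counting error only, since PCR reads are not independent molecules.

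None of the 5 miRNAs passed the test at any time after surgery. All 5 passed the filter of at least 10 CPM in at least 12 libraries, as did 252 miRNAs in all, and they were compared by edgeR's quasi-likelihood test with Benjamini-Hochberg adjustment over the 252. A miRNA was called at an adjusted p under 0.05 with a fold change of at least 1.5. The members called were 0 of 5 for S6h against Control, where 0% of all tested miRNAs were called, and 0 of 5 for S24h against Control, where 11.9% were called. They were 0 of 5 for S72h against Control, with 3.57% called among all tested. For S24h against S6h they were 0 of 5, with 20.2% called, and for S72h against S24h 0 of 5, with 0.397% called. At an unadjusted p under 0.05 the count was 1 of 5 for S72h against Control, which was miR-146a-5p, and 0 of 5 in each of the other comparisons. Among all tested miRNAs this share was 19.0% for S72h against Control, close to that of the members, and 3.57%, 29.4%, 28.97% and 11.5% for S6h against Control, S24h against Control, S24h against S6h and S72h against S24h. The ranges of the groups overlapped in all 30 pairs of groups formed over the 5 members. Overlap was the common case, since only 2.98% of the 1512 such pairs over the 252 miRNAs did not overlap.

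**Figure D1:**
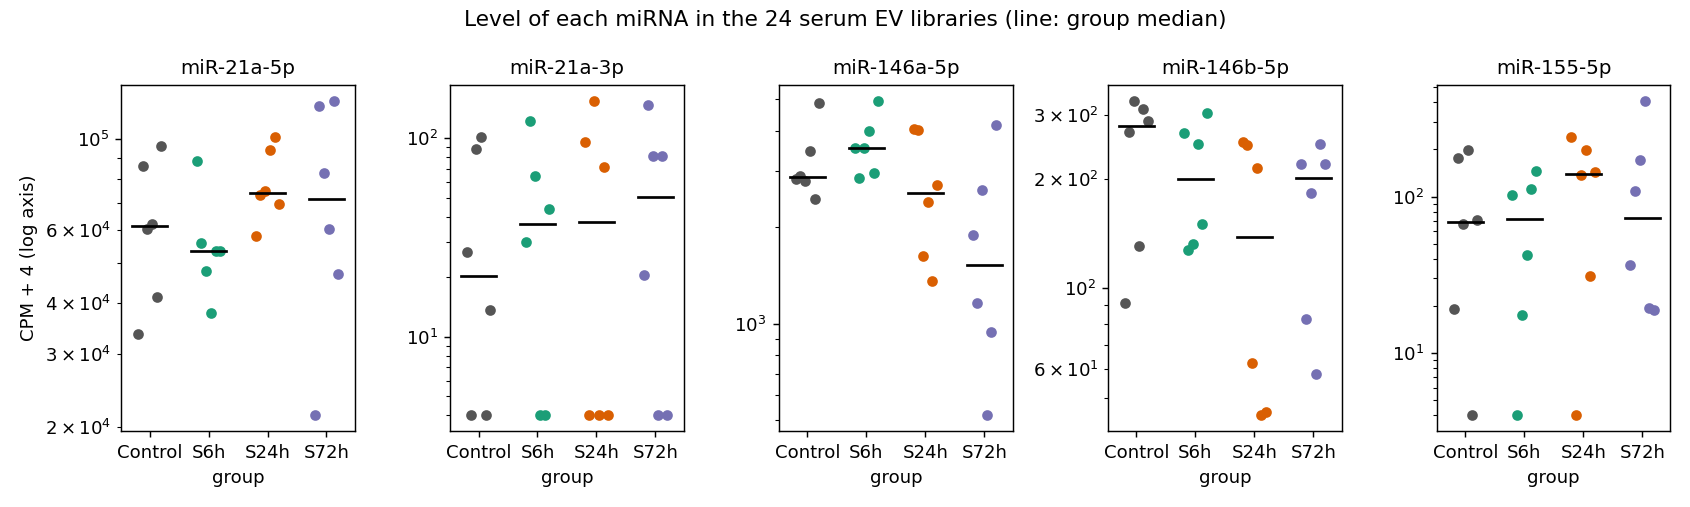
Level of each member as CPM + 4 on a log axis, with 1 point per library (n = 6 per group) and a line at the group median. The groups overlap in every panel, and the S72h median of miR-146a-5p, 1521 CPM, lies below the other 3 medians.

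miR-21a-5p, the guide strand of its hairpin, was the most abundant miRNA by mean CPM over the 24 libraries together and in S24h and S72h, and ranked 3 in Control and in S6h. Within single libraries its rank ran from 1 to 12. Its level ran from 33627 to 96217 CPM in Control with a median of 61330, and from 37711 to 88326 CPM in S6h with a median of 53350. In S24h it ran from 58130 to 101250 CPM with a median of 73949, and in S72h from 21280 to 123952 CPM with a median of 71601. The order of the medians was thus S24h, S72h, Control and S6h, with wide overlap between neighbours, and the S72h group held both the lowest and the highest library of all 24. The lowest, S72h replicate 1, had 2.13% of its counts in miR-21a-5p (interval 2.07 to 2.19%) and was the library with 23.7% of skeletal muscle miRNAs. Together the members took a median of 6.49% of the counts in Control, 5.77% in S6h, 7.71% in S24h and 7.36% in S72h, and miR-21a-5p made up between 89.9% and 99.0% of that sum.

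The fitted log2 fold change of miR-21a-5p against Control was -0.11 ± 0.33 (SE) in S6h, 0.17 ± 0.33 in S24h and 0.31 ± 0.33 in S72h. The adjusted p values of edgeR were 0.991, 0.782 and 0.691. On the linear scale the 95% intervals, which are not adjusted for the number of miRNAs, were 0.58 to 1.47 for S6h, 0.71 to 1.79 for S24h and 0.78 to 1.97 for S72h. A rise of miR-21a-5p within these bounds is not excluded with 6 mice per group. The counting error of miR-21a-5p at its mean count in Control was 1.17%, and the coefficient of variation between the 6 mice was 38.5%. The biological coefficient of variation fitted by edgeR was 40.7%, close to the median of 41.03% over the 77 miRNAs with a mean above 1000 CPM.

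miR-21a-3p, the passenger strand of the same hairpin, was seen with 0 to 19 counts per library and was at 0 in 9 of 24 libraries. Taking 3 counts as the upper limit of a count of 0, the level could be up to 6.36 CPM in the deepest of these libraries and 46.9 CPM in the shallowest. Its medians were 16.2 CPM in Control, 32.8 CPM in S6h, 33.9 CPM in S24h and 46.6 CPM in S72h, and with 1 library left out the S24h median is 0 or 67.8 CPM and those of Control and S72h also move by over 1.5 times. The libraries at 0 were spread over the groups, with 2 in Control, 2 in S6h, 3 in S24h and 2 in S72h. The log2 fold changes against Control were 0.13 ± 1.35 in S6h, 0.29 ± 1.36 in S24h and 0.32 ± 1.37 in S72h, so that only changes of several fold could have been seen with this depth and spread.

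miR-146a-5p, the NF-κB-induced member with the most counts of its family, was the member with the smallest unadjusted p. Its level ran from 2450 to 4860 CPM in Control with a median of 2854, and from 2849 to 4952 CPM in S6h with a median of 3527. In S24h it ran from 1356 to 4039 CPM with a median of 2545. In S72h the 6 libraries had 1882, 1161, 2615, 514, 938 and 4163 CPM in the order of their replicate numbers, with a median of 1521 CPM. Of these, 4 lay below every Control library, 1 lay within the Control range and below only its highest library, and 1 lay inside its lower part. The lowest, S72h replicate 4, had 57 counts (interval 397 to 666 CPM), and the highest, S72h replicate 6, had 557 counts (3832 to 4523 CPM), and these intervals do not overlap. The coefficient of variation between mice was 27.1% in Control, 21.2% in S6h, 42.7% in S24h and 71.5% in S72h.

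The log2 fold change of miR-146a-5p against Control was 0.25 ± 0.34 in S6h (adjusted p = 0.991 by edgeR) and -0.43 ± 0.34 in S24h (adjusted p = 0.447 by edgeR). In S72h it was -0.78 ± 0.34, with an unadjusted p of 0.0297 and an adjusted p of 0.197 by edgeR, a fold of 0.58 (95% interval 0.36 to 0.94) that did not pass the threshold. For S24h against S6h it was -0.67 ± 0.34 (adjusted p = 0.187 by edgeR), and for S72h against S24h -0.35 ± 0.34 (adjusted p = 0.886 by edgeR). The result at 72 h rests on S72h replicate 6. Without this library the log2 fold change was -1.14 and the adjusted p of edgeR was 0.0441, which passes the threshold. With each of the other 11 libraries of the comparison left out, the adjusted p of edgeR stayed above 0.05.

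**Figure D2:**
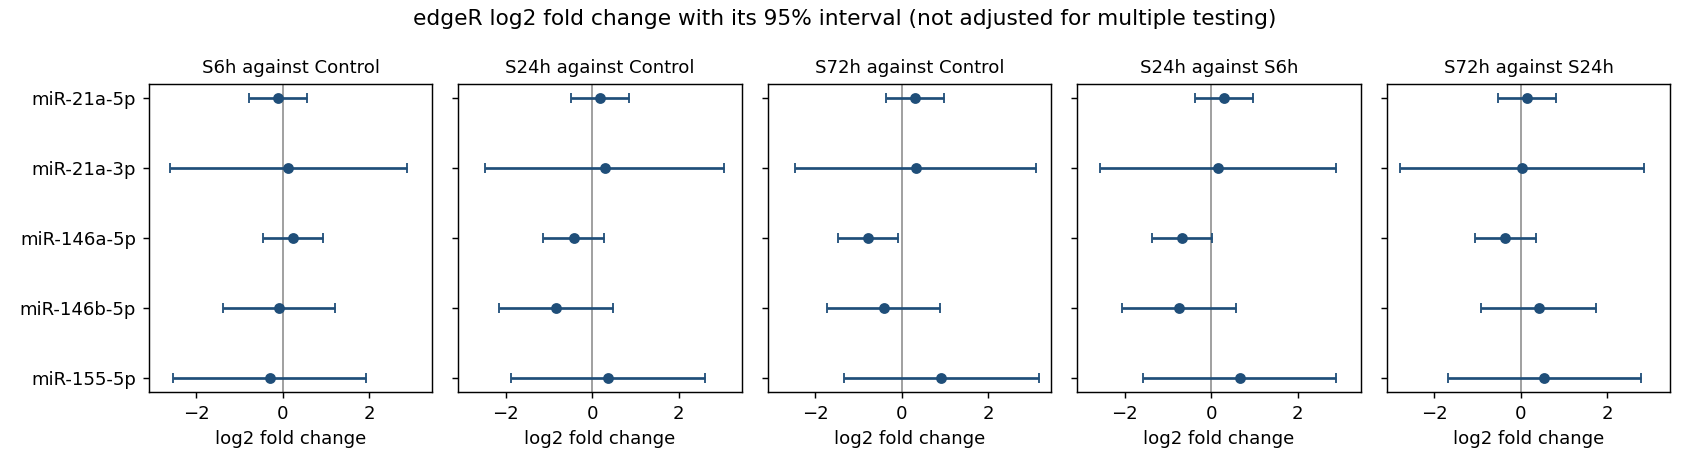
Log2 fold change of each member (points) with its 95% interval (bars) from the edgeR fit, for the 5 comparisons. The interval excludes 0 only for miR-146a-5p in S72h against Control, where it runs from -1.48 to -0.08 before adjustment.

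The erythroid share of the 6 S72h libraries, in the order of their replicate numbers, was 11.3%, 6.06%, 7.62%, 4.52%, 5.23% and 17.7%. The highest library in miR-146a-5p, replicate 6, had the largest share, and the lowest 3, replicates 2, 4 and 5, had the smallest shares. The order was not the same throughout, since replicate 1 had a larger erythroid share than replicate 3 and less miR-146a-5p. The match was not particular to this list. The platelet and endothelium share, in the same order, was 2.70%, 2.07%, 3.84%, 1.61%, 2.10% and 3.49%, again smallest in replicates 2, 4 and 5. In S24h the lowest library in miR-146a-5p, replicate 5, had an erythroid share of 3.57%. There replicate 6 had 3.54% with 2704 CPM of miR-146a-5p, above the median of its group. Scaling without the erythroid miRNAs left the log2 fold change at 72 h at -0.79 (adjusted p = 0.199 by edgeR). S72h replicate 4 also had 29.98% of its counts in liver miRNAs, and without it the log2 fold change was -0.67 (adjusted p = 0.293 by edgeR). Beyond these values, the part of any of these shares in the result was not tested.

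**Figure D3:**
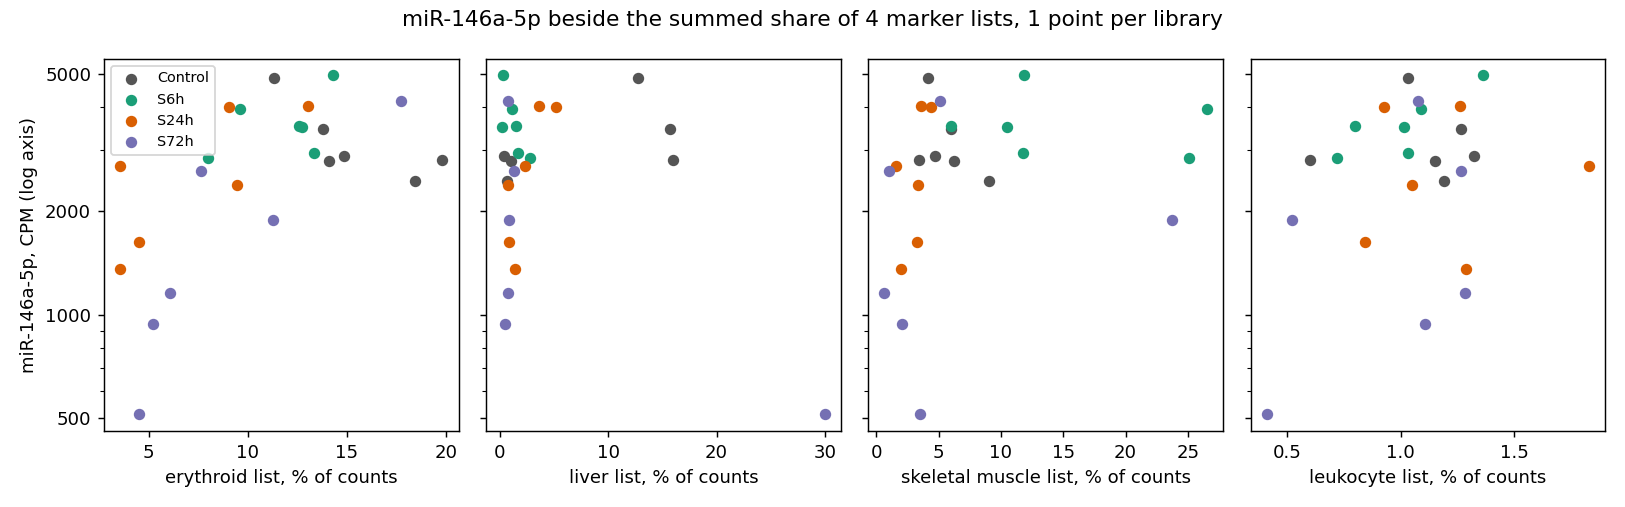
miR-146a-5p in CPM (log axis) against the summed share of counts of the erythroid, liver, skeletal muscle and leukocyte miRNA lists, with 1 point per library. The S72h library at 17.7% of erythroid miRNAs is the highest of its group at 4163 CPM, and the S72h library at 29.98% of liver miRNAs is the lowest at 514 CPM.

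miR-146b-5p, encoded on another chromosome with the same seed, was counted 3 to 116 times per library. Its level ran from 87.4 to 325 CPM in Control with a median of 276, and from 124 to 300.1 CPM in S6h with a median of 196. In S24h it ran from 40.7 to 249 CPM with a median of 134, and in S72h from 54.1 to 246 CPM with a median of 198. S24h held 3 libraries at 58.5 CPM or less and 3 at 210 CPM or more, with none between, so that the S24h median is 58.5 or 210 CPM with 1 library left out. The log2 fold changes against Control were -0.08 ± 0.64 in S6h, -0.83 ± 0.65 in S24h and -0.42 ± 0.64 in S72h, with adjusted p values of edgeR of 0.991, 0.441 and 0.800. For S24h against S6h it was -0.75 ± 0.65 (adjusted p = 0.505 by edgeR).

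The pair of miR-146 family members varied together over the libraries. Over 24 libraries on log2(CPM + 4), Pearson's r was 0.54 (permutation p = 0.00569, adjusted over 3 pairs 0.0171) and Spearman's rho was 0.50 (permutation p = 0.0142, adjusted 0.0425). Without S72h replicates 4 and 5, which lie farthest from the median of miR-146a-5p, r was 0.62 (permutation p = 0.00203). Centred on the group means, r was 0.57 (permutation p = 0.00263). Within the groups of 6, r was 0.02 in Control, 0.81 in S6h, 0.76 in S24h and 0.66 in S72h, with exact permutation p values of 0.961, 0.0417, 0.135 and 0.185, none of which stayed under 0.05 after adjustment over the 3 pairs. By rank, rho was -0.43 in Control, 0.89 in S6h, 0.83 in S24h and 0.37 in S72h, with exact permutation p values of 0.419, 0.0333, 0.0583 and 0.497, and adjusted values of 0.0875 or more. The relation was thus not seen within Control and was not established within any single group of 6. How reads that could match both miRNAs were counted is not given in the sources used here, and the part of such reads in the correlation was not tested.

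**Figure D4:**
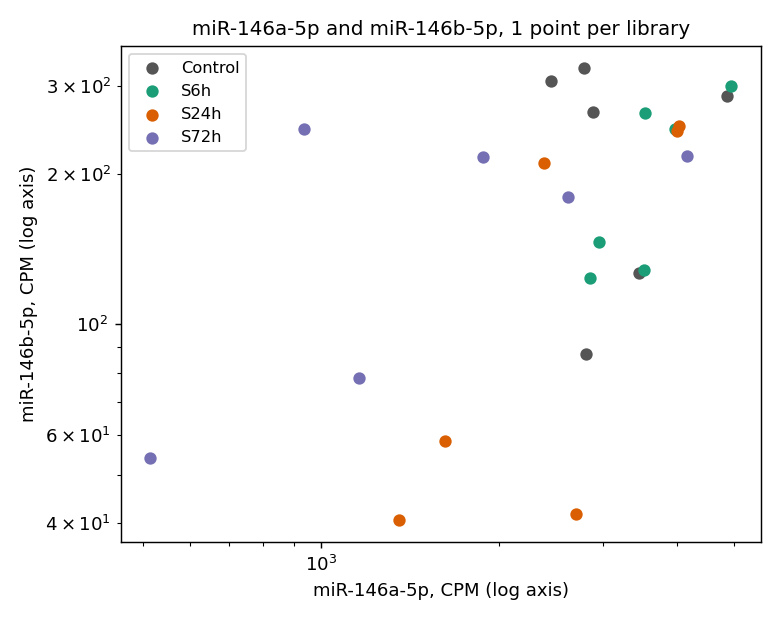
miR-146b-5p against miR-146a-5p, both in CPM on log axes, with 1 point per library coloured by group. Over 24 libraries r is 0.54 on the log2 scale, and within Control r is 0.02 and rho is -0.43.

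By contrast, the relation of miR-21a-5p to either miR-146 was not called. For miR-21a-5p and miR-146a-5p, r was -0.26 (permutation p = 0.213, adjusted 0.319) and rho was -0.31 (permutation p = 0.137, adjusted 0.206). Without S72h replicates 1 and 5, which lie farthest from the median of miR-21a-5p, r was -0.29 (permutation p = 0.195). On CPM scaled by the TMM factors, r was -0.49 (permutation p = 0.0147, adjusted 0.0221), so that this call depends on the scaling. Within the groups r was 0.68 in Control, -0.18 in S6h, -0.72 in S24h and -0.33 in S72h, with exact permutation p values of 0.144, 0.754, 0.0889 and 0.510. By rank, rho was 0.77 in Control, -0.20 in S6h, -0.89 in S24h and -0.43 in S72h, with exact permutation p values of 0.103, 0.714, 0.0333 and 0.419. The value in S24h had an adjusted p of 0.0875 over the 3 pairs by the exact permutation test. The sign was positive in Control and negative in the 3 surgery groups, and the difference between groups was not tested. For miR-21a-5p and miR-146b-5p, r was -0.14 (permutation p = 0.519) and rho was -0.10 (permutation p = 0.635), and without the same 2 libraries r was -0.17 (permutation p = 0.449). Within the groups this r was 0.52 in Control, 0.18 in S6h, -0.33 in S24h and -0.24 in S72h, with exact permutation p values of 0.246, 0.738, 0.422 and 0.636, and rho lay between -0.60 and 0.14.

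Ratios of counts within a library do not depend on library scaling. Differences in the log2 ratio, with 0.5 added to each count, were tested by exact two-sided permutation over all assignments of 6 against 6, with a smallest possible p of 0.00216 and adjustment over 15 tests. miR-21a-5p outnumbered miR-146a-5p by a median of 18.9 in Control, 15.8 in S6h, 32.5 in S24h and 67.8 in S72h. The S72h median rests on single libraries, since it lay between 31.6 and 104 with 1 library left out, and the ratio of summed counts was 29.4 in both S24h and S72h. The log2 ratio was 4.24 ± 0.43 (SD, n = 6) in Control, 3.92 ± 0.54 in S6h, 4.96 ± 0.89 in S24h and 5.43 ± 1.67 in S72h. The S72h libraries lay apart from each other, with 2 of them at 3.49 and 3.50 and the other 4 between 4.98 and 7.03. The low ones were S72h replicates 1 and 6, which also had the largest erythroid shares of their group, 11.3% and 17.7%. Their skeletal muscle shares, 23.7% and 5.07%, were the largest of the group as well. The part of either list was not tested.

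None of the 15 ratio tests passed after adjustment. The ratio of miR-21a-5p to miR-146a-5p differed from Control by 0.71 ± 0.40 (SE) on the log2 scale in S24h (exact permutation p = 0.104, adjusted 0.487) and by 1.18 ± 0.70 in S72h (exact permutation p = 0.130, adjusted 0.487). Between S24h and S6h it differed by 1.03 ± 0.42 (exact permutation p = 0.0346, adjusted 0.260), with 5 of 6 S24h libraries above the S6h median, and between S72h and S24h by 0.47 ± 0.77 (exact permutation p = 0.548, adjusted 0.821). The ratio of miR-146a-5p to miR-146b-5p had medians of 13.9 in Control, 18.4 in S6h, 22.1 in S24h and 12.04 in S72h. It was -1.15 ± 0.49 on the log2 scale in S72h against S24h (exact permutation p = 0.0325, adjusted 0.260), with 6 of 6 S72h libraries below the S24h median.

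**Figure D5:**
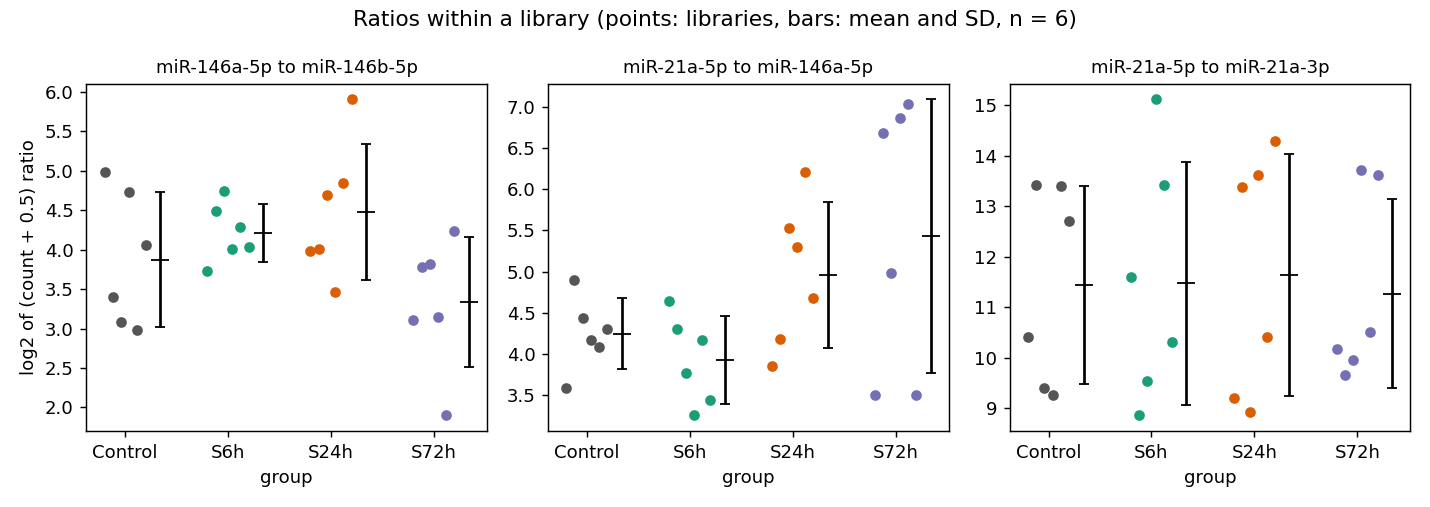
Log2 ratio of counts (0.5 added) within each library for 3 pairs of members, with points for libraries and bars for the mean and SD (n = 6). The S72h libraries of miR-21a-5p to miR-146a-5p fall at 3.49 and 3.50 or between 4.98 and 7.03, and the ratio to miR-21a-3p is spread over several log2 units in every group.

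The arms of the miR-21a hairpin were counted very unequally. Summed over a group, miR-21a-5p had 1570 counts for each count of miR-21a-3p in Control, 1632 in S6h, 1417 in S24h and 1614 in S72h. In the same order, the groups held only 28, 42, 30 and 26 counts of miR-21a-3p. Single libraries had 13, 19, 18 and 11 of these, so that no order of the groups is read from the ratios. Both arms are 22 bases long and fall inside the range of read lengths that was kept. The log2 ratio differed from Control by 0.04 ± 1.27 in S6h, 0.20 ± 1.27 in S24h and -0.17 ± 1.11 in S72h, with exact permutation p values of 0.965, 0.823 and 0.963. For the other hairpins the opposite arm was all but unseen. miR-146a-3p and miR-155-3p had 0 counts in all 24 libraries, as did the copy miR-21b, and miR-146b-3p had 4 counts in S6h replicate 6 and 0 in the other 23.

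miR-155-5p, the member most closely tied to activated immune cells, was near the limit of counting, with 0 to 45 counts per library. A count of 0 was found in 3 libraries, where the limit of 3 counts equals 18.5 to 40.7 CPM. Its medians were 64.8 CPM in Control, 68.3 CPM in S6h, 136 CPM in S24h and 68.5 CPM in S72h, and its ranges were 0 to 194, 0 to 141, 0 to 236 and 14.9 to 406 CPM. With 1 library left out the median lay between 38.2 and 98.4 CPM in S6h and between 32.7 and 104 CPM in S72h, so that no order of the groups is read from the medians. Every group held libraries at the low end. The highest library of all, S72h replicate 4, had 45 counts (interval 303 to 543 CPM). It is the one with 29.98% of liver miRNAs and, on CPM not scaled by the TMM factors, the lowest miR-146a-5p.

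The log2 fold changes of miR-155-5p against Control were -0.29 ± 1.096 in S6h, 0.37 ± 1.101 in S24h and 0.91 ± 1.11 in S72h, with adjusted p values of edgeR of 0.991, 0.863 and 0.736. The direction at 72 h rests on 1 library, since the log2 fold change without S72h replicate 4 was -0.43 (adjusted p = 0.867 by edgeR). The 95% interval of the fold at 24 h, 0.27 to 6.10, shows the changes that are not excluded at this depth and spread. The fitted biological coefficient of variation was 119% for miR-155-5p and 152% for miR-21a-3p, against a median of 127% over the 136 miRNAs with a mean of 30 to 300 CPM.

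Other miRNAs tied to inflammatory or immune cell signalling formed a list of 36, of which 30 were tested. In S6h against Control 0 of 30 were called, and in S24h against Control 0 were higher and 3 were lower. In S72h against Control 1 of 30 was lower, beside 3.57% of all tested miRNAs, and in S72h against S24h 0 were called, beside 0.397%. In S24h against S6h 2 were higher and 5 were lower. These shares, 10% in S24h against Control and 23.3% in S24h against S6h, stand beside 11.9% and 20.2% of all tested miRNAs. With limma-voom the list had 2 higher and 7 lower in S24h against Control (30%, beside 18.7% of all tested) and 4 higher and 8 lower in S24h against S6h (40%, beside 26.2%). The median log2 fold change in S24h against Control was -0.28 for the list, -0.21 for all 252 miRNAs and 0.17 for the 5 members. The split of the list depended on the scaling. With RLE size factors in place of TMM, 4 were higher and 2 lower in S24h against Control (20%, beside 14.7% of all tested). For S24h against S6h 3 were higher and 3 lower (20%, beside 17.1%). The split over all tested miRNAs moved in the same direction, as given below. In S72h against Control 2 were higher and 0 lower with DESeq2 (6.67%, beside 8.33% of all tested). With TMM factors that leave aside miR-122-5p and miR-1a-3p, 2 were higher and 1 lower (10%, beside 6.35%). With a mean of at least 100 CPM, which leaves fewer of the list tested, 3 were higher and 0 lower, beside 10.8% of all 166 tested.

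Among the list, miR-29a-3p, a regulator of collagen and other matrix genes, fell from 10938 ± 2126 TMM-scaled CPM in Control to 4414 ± 654 in S24h (SD, n = 6), or by -1.31 ± 0.26 on the log2 scale (adjusted p = 0.000782 by edgeR). miR-27b-3p fell from 8237 ± 2078 to 2230 ± 537 TMM-scaled CPM, or by -1.88 ± 0.34 on the log2 scale (adjusted p = 0.00032 by edgeR). Both were also lower in S24h than in S6h, by log2 fold changes of -1.66 ± 0.26 and -2.30 ± 0.34, and both calls held under all 10 other settings tried. miR-19a-3p, a member of the miR-17-92 cluster, was lower in S24h at 2.45 ± 5.99 TMM-scaled CPM against 94.0 ± 78.3 in Control, and miR-511-5p, encoded in the mannose receptor gene of macrophages, was lower in S72h at 2.51 ± 6.14 against 126 ± 105. The adjusted p values of edgeR were 0.0479 for miR-19a-3p and 0.0354 for miR-511-5p. Of the 10 other settings, miR-19a-3p was not called under 5 (RLE size factors, no filter, a mean of at least 100 CPM, the replicate block, and TMM factors that leave aside miR-122-5p and miR-1a-3p). miR-511-5p was not called under 4 (DESeq2, a mean of at least 100 CPM, only the 2 groups compared, and the replicate block). The filter at a mean of 100 CPM leaves both untested. Both were nearly uncounted in the lower group, so that no fold is given.

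Between S24h and S6h, miR-150-5p, typical of lymphocytes, was higher in S24h by 1.39 ± 0.40 on the log2 scale (adjusted p = 0.0121 by edgeR), and miR-223-3p, typical of myeloid cells, was lower with a log2 fold change of -1.06 ± 0.33 (adjusted p = 0.0226 by edgeR). miR-221-3p was higher in S24h by 1.33 ± 0.31 (adjusted p = 0.00226 by edgeR). miR-27a-3p and miR-125b-5p were lower, with log2 fold changes of -1.12 ± 0.29 and -1.001 ± 0.33. The calls of miR-150-5p and miR-221-3p held under all 10 other settings, that of miR-27a-3p under 8, that of miR-223-3p under 7 and that of miR-125b-5p under 4. The most abundant of the list were let-7i-5p, miR-221-3p and miR-29a-3p, and let-7i-5p, at 16849 ± 3906 CPM in Control and 20847 ± 5161 CPM in S24h, had log2 fold changes between -0.07 and 0.15 in the 5 comparisons, none of them called.

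The miRNAs whose levels over the 24 libraries were most like those of a member are given as a description, since all values of a library share its total. For miR-21a-5p these were miR-142a-3p, a miRNA of blood cells, with Spearman's rho of 0.84, let-7f-5p with 0.78 and miR-98-5p with 0.76, among 251 miRNAs compared. Centred on the group means, these values were 0.72, 0.70 and 0.76. For miR-146a-5p they were miR-375-3p with rho of 0.71, miR-24-3p with 0.65 and miR-215-5p with 0.62. For miR-146b-5p they were miR-24-2-5p with 0.70, miR-93-5p with 0.66 and miR-674-3p with 0.65. The miRNAs nearest to the miR-146 pair were thus different ones for each of its members, and neither was among the other's nearest 3.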

How the data were processed

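The deposited table holds raw whole-number counts per mature miRNA, without normalization. Per the study's methods, adapters were removed by cutadapt and reads mapped by Bowtie to GRCm38/mm10, and the authors summarized mapped reads of 20 to 24 bases per mature miRNA of miRBase using featureCounts. How reads matching several loci were counted is not given in the sources used here, and no use of molecular identifiers is described.

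Here miRNAs with at least 10 CPM in at least 12 of 24 libraries (252 of 1966) were scaled by TMM and fitted in 1 edgeR 4.0.16 quasi-likelihood model of the 4 groups (R 4.3.3), with Benjamini-Hochberg adjustment. The SE of a log2 fold change was derived from the F statistic. Ratios and correlations were tested in Python 3.11.15 with scipy 1.17.1, with exact permutation or 100000 permutations and a pseudocount of 4 CPM for correlations. The scripts were tested on simulated data.

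The members and lists were chosen with earlier results of these data known. Besides the members, the text names the other arms and close copies of their hairpins, the inflammation-list miRNAs that were called or had the 3 highest mean CPM, and the 3 miRNAs most like each member with a median count of at least 10. Alternatives concerned the test (DESeq2 1.42.0, limma-voom from limma 3.58.1), scaling, filter, groups in the model and left-out libraries. Labels give separate mice. Over 30 pairs of same-numbered libraries of different groups, deviations from the group means correlated between -0.145 and 0.148 (median 0.007). No pairing by replicate number was seen in these values, which cannot exclude that same-numbered mice were handled together. The replicate block was therefore only an alternative.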

Additional observations from a re-analysis of the deposited data

Results flagged for a closer look

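The level of miR-21a-5p in S6h replicate 1, 88326 CPM, stood apart from the other 5 S6h libraries, which lay between 37711 and 55951 CPM. Its gap to the nearest library was 0.640 of the range of the group, more than Dixon's critical value for 6 samples. It was the 1 library so marked among 32 sets of 6 values checked, in which chance alone marks about 1 in 20, or 1.6.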

How the results depend on the processing

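No member was called in any of the 5 comparisons under the 10 other settings of the test, scaling, filter, groups in the model and replicate block. With a mean of at least 100 CPM, miR-21a-3p (mean 45.0 CPM) and miR-155-5p (99.2 CPM) were not tested. The count of 0 of 5 also held under each left-out library except 1. For S72h against Control it ranged from 0 to 1 and was 1 without S72h replicate 6, where 12 of all 252 miRNAs (4.76%) were called. The log2 fold change of miR-146a-5p at 72 h ranged from -0.88 to -0.71 over the 10 other settings (adjusted p from 0.0556 with DESeq2 to 0.315). Calls over all miRNAs varied more: 9 for S72h against Control became 21 with DESeq2, 18 with a mean of at least 100 CPM, 16 with TMM factors that leave aside miR-122-5p and miR-1a-3p (chosen after seeing the data), 3 without erythroid miRNAs in TMM, 2 with library totals alone, 1 with the block and 0 with only the 2 groups compared. For S24h against Control, 30 became 50 with DESeq2 and 47 with limma-voom. Single left-out libraries moved the 9 for S72h against Control to between 1 (0.397%, as without Control replicate 2) and 14 (5.56%, without S72h replicate 1). They moved the 30 for S24h against Control to between 20 (without Control replicate 5) and 42 (without S24h replicate 2). For S72h against S24h, 1 became 4 with DESeq2, 0 with limma-voom or only the 2 groups, and 10 without a filter, where S6h against Control had 2. The scaling moved the median log2 fold change of all 252 miRNAs, with RLE size factors from -0.21 to -0.06 in S24h against Control, from -0.23 to 0.06 in S24h against S6h and from -0.02 to -0.14 in S6h against Control, and with library totals from 0.09 to -0.12 in S72h against S24h. The calls in S24h against Control were 10 higher and 20 lower with TMM and 18 higher and 19 lower with RLE size factors, and in S24h against S6h 16 and 35 with TMM and 22 and 21 with RLE size factors.

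The direction of small uncalled differences changed under some settings, and the cause was not tested. For miR-21a-5p in S72h against S24h the log2 fold change was -0.032 with limma-voom and -0.046 with library totals. With limma-voom it was 0.15 for miR-146b-5p in S6h against Control, -0.14 for miR-155-5p in S72h against S24h, and for miR-21a-3p -0.23 in S6h and -0.0024 in S24h against Control. For miR-21a-3p in S72h against S24h it was -0.081 with DESeq2, -0.092 with RLE size factors, -0.034 with library totals and -0.0058 without erythroid miRNAs. With the replicate block it was 0.32 for miR-155-5p in S6h against Control, and for miR-21a-3p -0.00057, -0.14 and -0.17 in S6h, S24h and S72h against Control, -0.14 in S24h against S6h and -0.033 in S72h against S24h. The block changed no member's call. The correlation of miR-21a-5p and miR-146a-5p was -0.49 on TMM-scaled CPM, which passed the threshold.

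Leaving out single libraries gave log2 fold changes for miR-21a-3p of -0.56 to 0.78 in S6h, -0.39 to 0.94 in S24h and -0.31 to 0.97 in S72h against Control, -0.52 to 0.85 in S24h against S6h and -0.60 to 0.71 in S72h against S24h. For miR-155-5p they were -0.70 to 0.24 in S6h and -0.43 to 1.45 in S72h against Control and -0.87 to 0.84 in S72h against S24h. For miR-146b-5p they were -0.24 to 0.050 in S6h against Control, and for miR-21a-5p -0.26 to 0.024 in S6h against Control and -0.0024 to 0.31 in S72h against S24h. The log2 ratio of miR-21a-5p to miR-21a-3p differed by -0.69 to 0.56 in S6h, -0.33 to 0.74 in S24h and -0.66 to 0.23 in S72h against Control, by -0.37 to 0.89 in S24h against S6h and by -0.91 to 0.16 in S72h against S24h. That of miR-146a-5p to miR-146b-5p differed by -0.019 to 0.47 in S24h against S6h.

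In Control, counting error at the mean count was 46.3% for miR-21a-3p, 33.3% for miR-155-5p and 19.5% for miR-146b-5p, against coefficients of variation between mice of 122%, 94.5% and 43.1%. For miR-146a-5p it was 4.91% against 27.1%.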
